A study of Homo sapiens with 4 samples.

Results

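The inhibitor of DNA binding genes (ID1, ID2, ID3 and ID4), the antagonists SMAD6, SMAD7, BAMBI and SKIL, and the ligands BMP2 and BMP4 were followed in Caco-2 cells before and after stimulation with IFNγ. These 10 genes were chosen by name, as the rows of the count table whose Ensembl identifier is paired with one of the symbols. Earlier results of these data were known when they and the pathway lists below were chosen, so shares given for them are descriptive only. Of the 10, 9 had a row among the 37515 genes of the table, and all 9 were among the 14820 genes that passed the filter on low counts and were tested. ID4 was not analysed here. Caco-2, derived from a human colorectal carcinoma, is widely cultured as a stand-in for the epithelium of the intestine, and the results come from this 1 line only. The cells were grown on transwell inserts for 15 days before the treatment. In the 2 unstimulated libraries the cells received medium only and were collected at 0 h, and in the 2 IFNγ libraries they received 60 ng/ml IFNγ on the basal side and were collected at 3 h. The titles of all 4 libraries mark the cells as WT. No unstimulated cells collected at 3 h are among the libraries, so the effect of IFNγ and that of the elapsed time cannot be told apart. The labels do not say that duplicates came from separate cultures, so the p-values measure the spread between these libraries, which may be technical.

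Bone morphogenetic proteins (BMPs) and TGFβ bind pairs of serine/threonine kinase receptors, which phosphorylate SMAD transcription factors. SMAD1, SMAD5 and SMAD9 carry BMP signals, SMAD2 and SMAD3 carry TGFβ and activin signals, and SMAD4 is the shared partner. The ID genes are immediate targets of BMP signaling, and the ID proteins pair with basic helix-loop-helix (bHLH) factors such as TCF3, TCF4 and TCF12 and keep them off DNA. SMAD6, SMAD7, BAMBI and SKIL are induced by the pathway and dampen it, so their transcripts are often read as a sign of its activity. In the intestine, BMP signals are strongest towards the villus, where cells differentiate, and are held back around the crypt base. Caco-2 cells are known to carry a mutated SMAD4.

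The promoters of 5 of the genes are shown because they cover the 3 genes with the most positive changes described below, ID1, ID3 and SKIL, and a pair that did not pass the test, ID2 and SMAD6. Each line holds the 250 bases before the annotated start, 5′ to 3′ on the strand of the gene, from RefSeq on GRCh38.p14, and capitals mark the motifs that were found.
ID1 promoter, chr20.0:31605039.0-31605288.0, plus strand: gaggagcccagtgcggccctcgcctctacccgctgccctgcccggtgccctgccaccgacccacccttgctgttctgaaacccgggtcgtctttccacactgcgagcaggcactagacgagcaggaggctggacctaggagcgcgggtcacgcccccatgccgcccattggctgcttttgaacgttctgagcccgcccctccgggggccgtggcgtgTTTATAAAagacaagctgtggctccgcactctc
ID3 promoter, chr1.0:23559502.0-23559751.0, minus strand: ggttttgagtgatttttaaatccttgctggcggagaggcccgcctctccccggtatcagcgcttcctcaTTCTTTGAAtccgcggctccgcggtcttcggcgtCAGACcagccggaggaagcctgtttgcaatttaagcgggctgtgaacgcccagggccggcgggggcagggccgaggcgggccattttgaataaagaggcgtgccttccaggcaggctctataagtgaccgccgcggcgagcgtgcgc
SKIL promoter, chr3.0:170357465.0-170357714.0, plus strand: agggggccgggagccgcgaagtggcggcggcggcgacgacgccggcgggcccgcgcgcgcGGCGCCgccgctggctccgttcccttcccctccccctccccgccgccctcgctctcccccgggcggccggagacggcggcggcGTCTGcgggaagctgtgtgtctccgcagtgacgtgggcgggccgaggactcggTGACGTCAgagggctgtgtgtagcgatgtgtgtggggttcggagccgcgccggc
ID2 promoter, chr2.0:8681806.0-8682055.0, plus strand: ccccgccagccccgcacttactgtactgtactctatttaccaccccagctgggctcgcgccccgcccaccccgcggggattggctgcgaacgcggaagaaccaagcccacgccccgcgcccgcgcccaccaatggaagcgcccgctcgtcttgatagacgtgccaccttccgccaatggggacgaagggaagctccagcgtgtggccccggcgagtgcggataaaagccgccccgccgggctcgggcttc
SMAD6 promoter, chr15.0:66701986.0-66702235.0, plus strand: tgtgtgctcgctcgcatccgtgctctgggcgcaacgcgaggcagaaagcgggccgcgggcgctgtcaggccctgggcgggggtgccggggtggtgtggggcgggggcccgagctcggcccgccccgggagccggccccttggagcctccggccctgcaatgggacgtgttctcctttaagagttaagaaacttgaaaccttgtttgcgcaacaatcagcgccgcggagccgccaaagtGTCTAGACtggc

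A RefSeq promoter matched 8 of the 9 genes, in 12 windows, since SMAD7 and BMP4 have 3 each. The motifs searched on both strands were the IFNγ-activated (GAS) element TTCNNNGAA, the SMAD palindrome GTCTAGAC, the SMAD box CAGAC, the GC-rich SMAD site GGCGCC, the TATA box TATAAA and the cAMP response element TGACGTCA. The GAS element occurred in 1 of the 12 windows, that of ID3, where its first base lies 181 bases before the start, and it occurs in 6.57% of all 35116 promoter windows of this length. ID3 also held a SMAD box at 147 bases, a motif found in 38% of all windows. In ID1 the matches were a TATA box starting 31 bases before the start and an overlapping one on the opposite strand at 33 bases, and 10.7% of all windows hold this motif. In SKIL there were a GC-rich SMAD site at 190 bases, a SMAD box on the opposite strand at 107 bases and a cAMP response element at 54 bases, which 16.4%, 38% and 1.65% of all windows hold. SMAD6 held the SMAD palindrome at 12 bases, which occurs in 0.182% of all windows, and the window of ID2 held none of the 6 motifs. Over all 12 windows, 7 held the SMAD box, 3 the GC-rich SMAD site and 2 the TATA box. Some of these matches lie in windows of SMAD7, BAMBI and BMP4, which are not printed. These are matches of letters in a short window and were not measured as binding sites.

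The libraries held 7171455 to 10365346 counts, so that 1 CPM, the normalized unit used below, stood for 7.14 to 10.3 counts. Of 8 IFNγ-induced genes used to check the labels, 6 were called higher, among them IRF1 with a log2 fold change of 5.86. Epithelial markers such as VIL1 and CDH1 had at least 9487 counts in every library, while KRT20 had 102 to 175 and CDX1 had 0 to 5. Not all of these markers were level between conditions, as CDX2 was itself called higher (log2 fold change 1.20). KRT8 and KRT18, at 0.84 and 0.88, passed the threshold on adjusted p given below and not that on fold change. Of the leukocyte markers, PTPRC had at most 2 counts and CD14 had 34 to 65. Of the fibroblast markers, COL1A2 and DCN had at most 1 count, PDGFRB had 30 to 68 and COL1A1 had 638 to 1842, and their part in the results was not tested. Across 14518 tested genes with a known sequence, genes of higher GC content had the more positive changes (Spearman rho = 0.436 across genes, which are not independent replicates). Values with this trend removed from each library are therefore given where they move a result. In bulk RNA, fewer cells that express a gene and less RNA per cell cannot be told apart. A gene was called at a Benjamini-Hochberg adjusted p under 0.05 in edgeR's quasi-likelihood test, over all tested genes, with an absolute log2 fold change above 1.

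ID1 and ID3 rose after IFNγ, and none of the other 7 genes was called. The 2 called genes are 22.2% of the 9, where 2.88% of all tested genes were called higher. None of the 9 was called lower, where 4.40% of all tested genes were. As the genes were chosen with earlier results known, these shares describe them and are no test. By edgeR's unadjusted p under 0.05, 3 of the 9 were higher and 1 was lower, where 16.6% and 18.8% of all tested genes were. DESeq2 called 0 lower and 1 higher, ID1, where it called 4.68% lower and 2.94% higher of the genes to which it gave an adjusted p. DESeq2 gave no adjusted p for ID3 because of its low counts. Without the threshold on fold change, SKIL also passed as a gene that was higher and BMP2 as the single gene that was lower. These are 33.3% and 11.1% of the 9, beside 9.02% and 11.0% of all tested genes. Over the 9 genes the changes had a median of 0.14 on the log2 scale, and over all tested genes the median was -0.01.

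**Figure D1:**
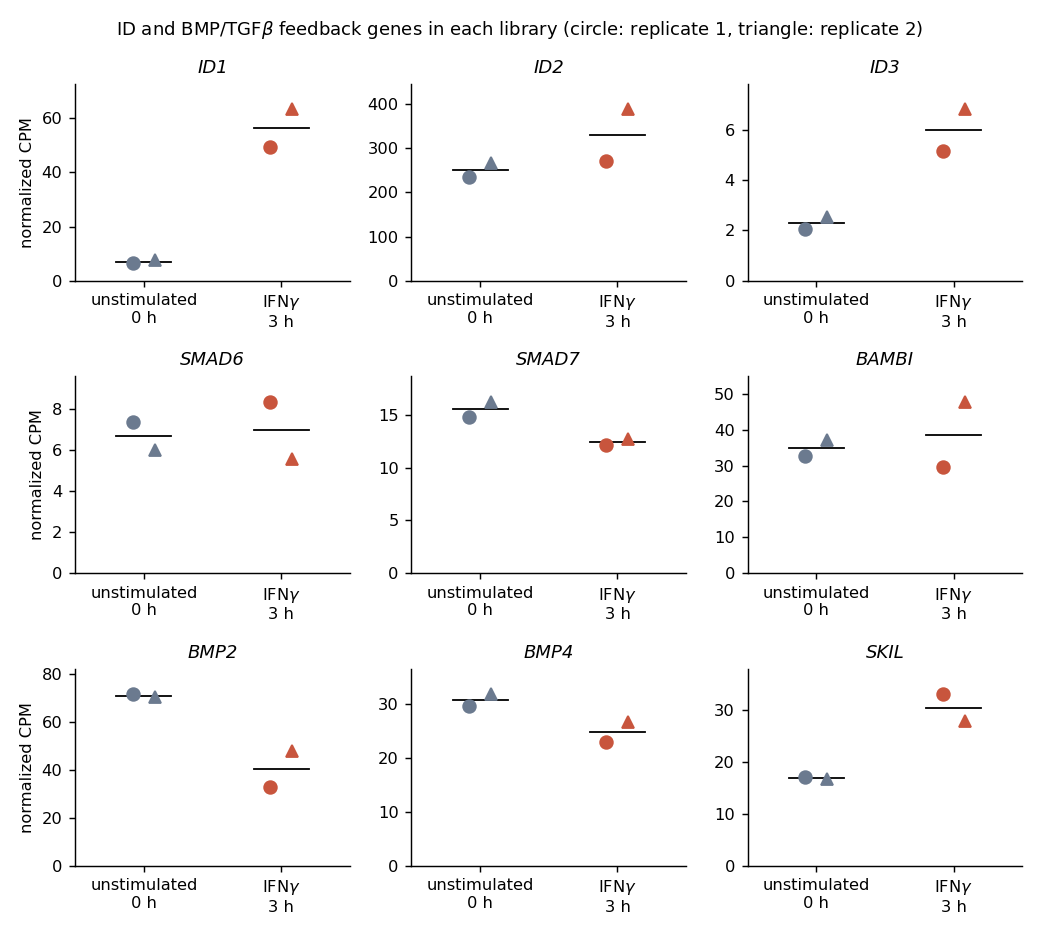
Normalized CPM (y axes, each starting at 0) of the 9 genes in the 2 unstimulated and the 2 IFNγ libraries, with circles for replicate 1, triangles for replicate 2 and a line at the mean. ID1 lies at 6.33 and 7.71 CPM in the unstimulated libraries and at 49.6 and 63.4 CPM in the IFNγ libraries, while the groups overlap for SMAD6 and BAMBI.

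ID1 (ENSG00000125968, chr20:30193086-30194318 on the plus strand of GRCh37) encodes the ID protein most often read as a direct output of BMP signaling. Its counts were 65 and 55 before and 510 and 465 after IFNγ, or 6.33 and 7.71 against 49.6 and 63.4 CPM. Both IFNγ libraries were far above both unstimulated ones. The mean was 7.02 ± 0.973 CPM (SD, n = 2) before and 56.5 ± 9.79 CPM (SD, n = 2) after IFNγ, an 8.09-fold increase. The log2 fold change was 3.02 with a standard error of 0.199 (edgeR's quasi-likelihood test, adjusted p = 0.000434), which placed ID1 at rank 28 of the tested genes by p. It was 2.93 between the libraries of replicate 1 and 3.00 between those of replicate 2. Leaving out any 1 library gave 2.81 to 3.18.

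ID3 (ENSG00000117318, chr1:23884417-23885992 on the minus strand of GRCh37), a close relative of ID1 with the same mode of action, was expressed at a much lower level. It had 21 and 18 counts before and 53 and 50 after IFNγ, which corresponds to 2.04 and 2.52 against 5.16 and 6.82 CPM. The groups did not overlap, with both IFNγ libraries higher. The log2 fold change was 1.39 with a standard error of 0.325, or 2.62-fold (edgeR's quasi-likelihood test, adjusted p = 0.0244). This call rests on few counts. It was lost without unstimulated replicate 1 (log2 fold change 1.23, adjusted p = 0.113) and without IFNγ replicate 2 (log2 fold change 1.16, adjusted p = 0.0819), although the direction held.

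ID2 (ENSG00000115738, chr2:8818975-8824591 on the plus strand of GRCh37), an ID gene with broad expression in epithelia, had by far the most counts of the family. It had 2423 and 1904 counts before and 2794 and 2848 after IFNγ, or 236 and 267 against 272 and 389 CPM. The IFNγ libraries were the higher ones, but the lower of them was close to the higher unstimulated library. A log2 fold change of 0.39, with a standard error of 0.176, did not pass the test (edgeR's quasi-likelihood test, adjusted p = 0.159). It ranged from 0.09 to 0.62 when 1 library was left out. Exons of ID2 overlap those of ID2-AS1 on the opposite strand, and with the handling of strand not given in the sources used here, reads of the pair cannot be told apart.

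Per kb of exon, ID2 made up most of the transcripts of the family in every library. The lengths count all annotated exons, 2213 bp for ID2, whose canonical transcript has 1299 bp, so the size of the shares depends on this choice. The level of the 3 genes together was 113 and 128 CPM per kb before and 166 and 232 CPM per kb after IFNγ. The share of ID2 in this sum was 94.3% and 93.8% before and 73.8% and 75.8% after. The share of ID1 was 4.54% and 4.86% before and 24.2% and 22.2% after. The share of ID3 stayed small, at 1.21% and 1.31% before and 2.07% and 1.97% after. Within each condition the shares of the 2 libraries lay close together, and for each gene the conditions did not overlap. The ratio of ID1 to ID3 counts was 3.1 and 3.06 in the unstimulated libraries and 9.62 and 9.3 in the IFNγ libraries. Both genes thus lay higher after IFNγ, and the ratio was about the same in duplicates but not between conditions, a difference that was not tested.

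**Figure D2:**
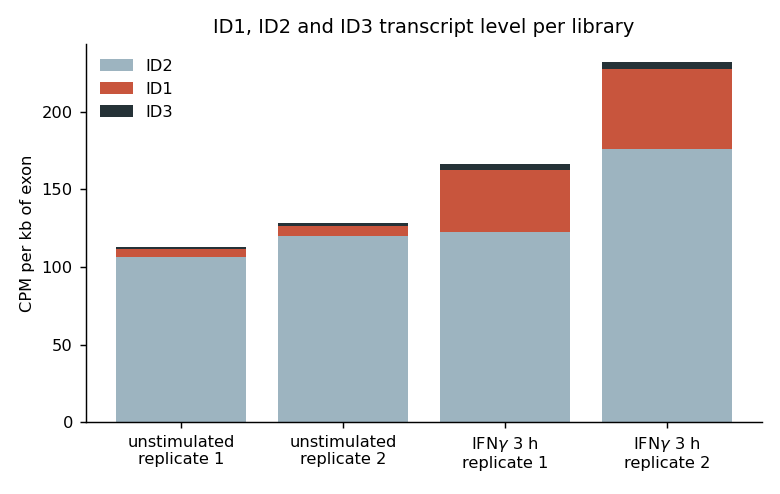
Level of ID2, ID1 and ID3 in CPM per kb of exon (y axis, stacked bars starting at 0) in each of the 4 libraries. ID2 takes 93.8% or more of the sum in the unstimulated libraries, and ID1 takes 24.2% and 22.2% in the IFNγ libraries.

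Among the antagonists, SKIL was higher after IFNγ, SMAD6 and BAMBI overlapped between the groups, and SMAD7 was a little lower. SKIL (ENSG00000136603, chr3:170075130-170114623 on the plus strand of GRCh37) encodes SnoN, a repressor that binds SMAD complexes on DNA. It had 177 and 119 counts before and 340 and 205 after IFNγ, or 17.2 and 16.7 against 33.1 and 28.0 CPM. The unstimulated libraries were close together and both IFNγ libraries lay above them. The log2 fold change was 0.85 with a standard error of 0.160, or 1.80-fold (edgeR's quasi-likelihood test, adjusted p = 0.0113), so SKIL passed the threshold on p and not that on fold change. SKIL has the lowest GC content of the 9 genes, 33.6%, and with the GC and length trend removed its log2 fold change was 1.66 (adjusted p = 0.000244), past both thresholds.

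SMAD7 (ENSG00000101665, chr18:46446223-46477335 on the minus strand of GRCh37) encodes the inhibitory SMAD that blocks TGFβ and BMP receptors. It had 153 and 116 counts before and 125 and 94 after IFNγ, or 14.9 and 16.3 against 12.2 and 12.8 CPM. Both IFNγ libraries were below both unstimulated ones. The log2 fold change of -0.32 with a standard error of 0.173 did not pass the test (edgeR's quasi-likelihood test, adjusted p = 0.236), and without any 1 library it was -0.38 to -0.24. With the GC and length trend removed it was -0.52 (adjusted p = 0.0953). The ratio of SKIL to SMAD7 counts, a pair of antagonists that differed in sign, was 1.16 and 1.03 before and 2.72 and 2.18 after IFNγ.

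SMAD6 (ENSG00000137834, chr15:66994574-67075187 on the plus strand of GRCh37), the inhibitory SMAD that acts mainly on BMP signals, had 7.40 and 6.02 CPM before and 8.37 and 5.59 CPM after IFNγ. The IFNγ libraries lay on either side of the unstimulated ones. Its log2 fold change was 0.06 with a standard error of 0.281 (edgeR's quasi-likelihood test, adjusted p = 0.897) and turned to -0.13 with the GC and length trend removed. BAMBI (ENSG00000095739, chr10:28966439-28971861 on the plus strand of GRCh37), a decoy receptor that lacks a kinase, had 32.8 and 37.1 CPM before and 29.5 and 47.8 CPM after IFNγ. Here again the IFNγ libraries enclosed the unstimulated ones. Its log2 fold change was 0.14 with a standard error of 0.229 (edgeR's quasi-likelihood test, adjusted p = 0.711), and it was -0.26 without IFNγ replicate 2. At this spread between duplicates, no difference was detectable for either gene.

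Both ligands were lower after IFNγ in every library. BMP2 (ENSG00000125845, chr20:6748333-6760893 on the plus strand of GRCh37), a BMP made by differentiated intestinal epithelial cells, had 733 and 500 counts before and 338 and 350 after, or 71.4 and 70.1 against 32.9 and 47.8 CPM. The unstimulated libraries were nearly equal and the IFNγ libraries lay below them, with a wide gap between the pair. The mean went from 70.7 ± 0.935 CPM to 40.3 ± 10.5 CPM (SD, n = 2 each), which is 1.76-fold lower. The log2 fold change was -0.82 with a standard error of 0.184 (edgeR's quasi-likelihood test, adjusted p = 0.0213), past the threshold on p and not on fold change. Without IFNγ replicate 2 it was -1.13, past the threshold on fold change, and without IFNγ replicate 1 it was -0.58. Without unstimulated replicate 1 it was -0.81, past neither threshold.

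BMP4 (ENSG00000125378, chr14:54416454-54425479 on the minus strand of GRCh37), a BMP of the intestinal mesenchyme that carcinoma lines can also express, had 305 and 227 counts before and 235 and 196 after IFNγ, or 29.7 and 31.8 against 22.9 and 26.7 CPM. Both IFNγ libraries were lower. Its log2 fold change of -0.31, with a standard error of 0.153, did not pass the test (edgeR's quasi-likelihood test, adjusted p = 0.19). Its exons overlap those of ENSG00000287156 on the opposite strand. The ratio of BMP2 to BMP4 counts was 2.4 and 2.2 before and 1.44 and 1.79 after IFNγ. BMP2 remained the more abundant of the pair in each library.

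**Figure D3:**
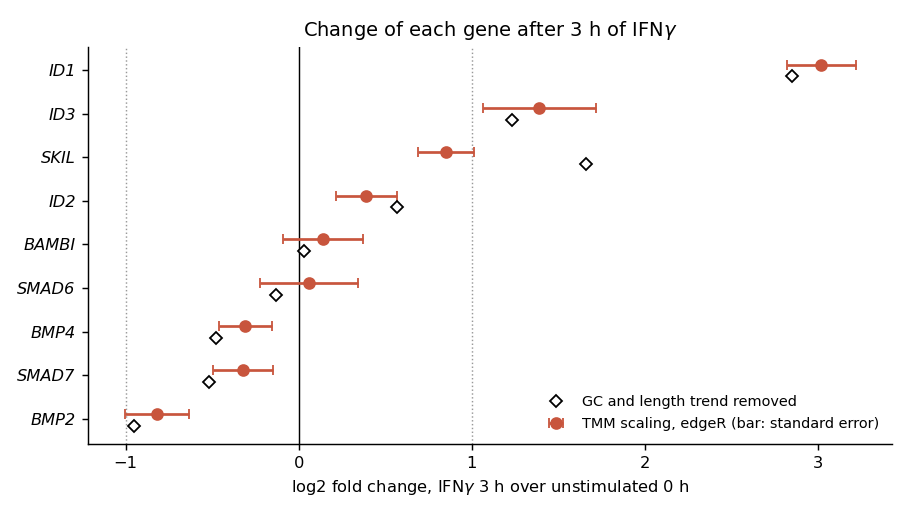
Log2 fold change of each gene, IFNγ at 3 h over unstimulated at 0 h (x axis, dotted lines at the threshold of 1 in either direction), as circles with standard error bars from the edgeR fit, and as open diamonds with the GC and length trend removed. ID1 stands apart at 3.02, and SKIL moves from 0.85 to 1.66 when the trend is removed.

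In 4 of the 9 genes (ID1, ID2, ID3 and SKIL) both IFNγ libraries were above both unstimulated ones, and in 3 (SMAD7, BMP2 and BMP4) both were below. Such separation was common, as 31.6% of all tested genes were separated upwards and 30.8% downwards. Per kb of exon, the order of the unstimulated levels was ID2 (114 ± 9.85 CPM per kb), BMP2 (19.9 ± 0.264), BAMBI (16.3 ± 1.43), BMP4 (9.93 ± 0.481), ID1 (5.69 ± 0.789), SMAD7 (3.95 ± 0.243), SKIL (2.09 ± 0.049), ID3 (1.53 ± 0.225) and SMAD6 (0.785 ± 0.114), each a mean ± SD of 2 libraries. No neighbours in this order overlapped, but the lengths used count all annotated exons of a gene. BAMBI has 2139 bp of exons and a canonical transcript of 1691 bp, while BMP2 has 3545 bp by either measure. The order of close neighbours therefore depends on the choice of length, and the order with other lengths was not computed. After IFNγ, ID1 was second at 45.8 ± 7.94 CPM per kb, behind ID2 at 149 ± 37.3 and ahead of BAMBI at 18.1 ± 6.04 and BMP2 at 11.4 ± 2.97. The libraries of BAMBI (13.8 and 22.3) and BMP2 (9.27 and 13.5) nearly met. BMP4 followed at 8.01 ± 0.887, SMAD7 was at 3.17 ± 0.12 and SMAD6 was lowest again at 0.816 ± 0.229. ID3, at 3.45 and 4.56 CPM per kb, and SKIL, at 4.07 and 3.45 CPM per kb, overlapped and had no order.

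The other genes of the pathway were described from lists by role, with 115 genes in all, of which 113 had a row and 78 were tested. The lists were drawn up with earlier results of these data known, so the shares by role are descriptive and are no test. In total 3 were called higher (CHRD, THBS1 and CCN1) and 2 lower (ACVR2B and TCF12), which is 3.85% and 2.56% of the 78, and DESeq2 called 3 higher and 2 lower as well. Both shares are near those of all tested genes. Without the threshold on fold change, 12 were higher and 13 lower (15.4% and 16.7%), beside 9.02% and 11.0% of all tested genes. With the GC and length trend removed, 8 of these 12 and 5 of these 13 still passed at an adjusted p under 0.05, as did 912 of 1337 and 757 of 1626 among all tested genes. In that fit 11 of the 78 were higher and 5 lower at this threshold, beside 1326 and 915 of 14518 genes. The genes added as higher were TGFBR1, TGIF1 and PTGS2, whose values are given below. The median log2 fold change of the 78 was 0.05, and 0.14 with the trend removed.

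**Figure D4:**
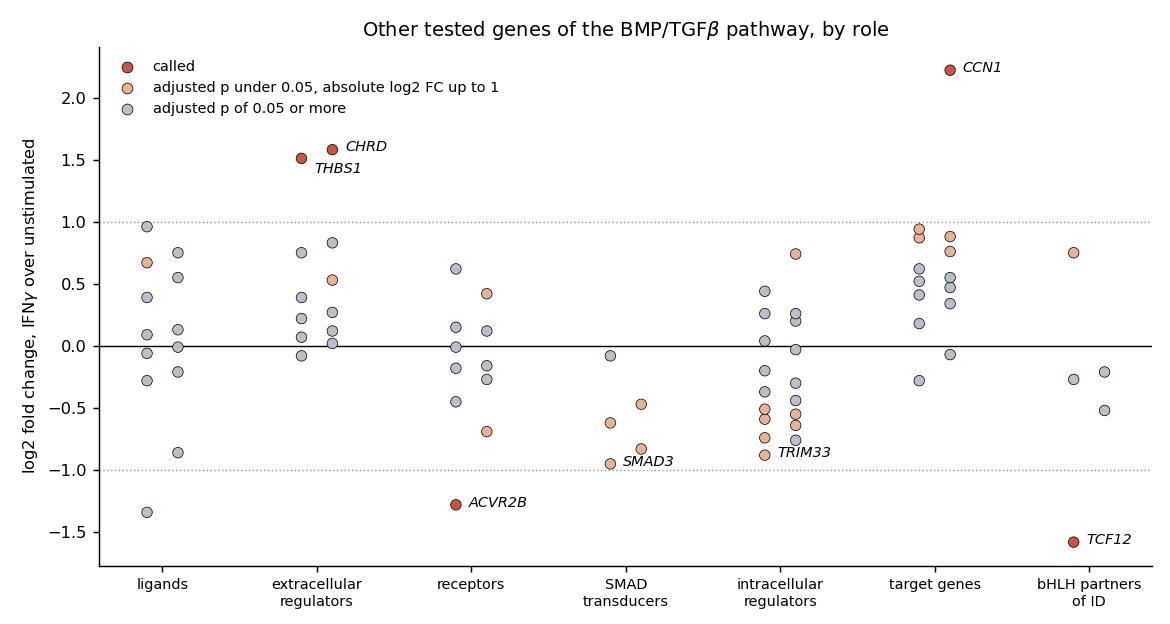
Log2 fold change (y axis, dotted lines at the threshold of 1 in either direction) of the 78 tested pathway genes, grouped by role along the x axis, 1 point per gene. Dark points were called, pale orange points passed an adjusted p of 0.05 only, and the 5 SMAD transducers lie below 0 here, whereas SMAD1, SMAD2 and SMAD5 lie above 0 (0.09, 0.31 and 0.02) with the GC and length trend removed.

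Of 13 tested ligands other than BMP2 and BMP4, none was called by edgeR or DESeq2, and 4 were higher and 2 lower at an unadjusted p under 0.05 (16.6% and 18.8% of all tested genes). TGFB1, the ligand that gives the TGFβ branch its name, had 60.7 ± 3.51 CPM before and 96.8 ± 11.9 CPM after IFNγ (SD, n = 2 each). Its log2 fold change of 0.67 passed on p alone (edgeR's quasi-likelihood test, adjusted p = 0.0144), and with the GC and length trend removed it was 0.44 (adjusted p = 0.0927). TGFB3, with 31 and 18 counts before and 56 and 40 after, was at 0.96 on the log2 scale and did not pass (adjusted p = 0.0582). TGFB2, named after its value was seen, went the other way, with 21 and 21 counts before and 11 and 6 after. Its log2 fold change of -1.34 did not pass either (adjusted p = 0.069 by edgeR's quasi-likelihood test), and it was -1.04 (adjusted p = 0.152) with the trend removed.

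Extracellular regulators, which bind ligands outside the cell, gave 2 of the 3 genes called higher among 12 tested (16.7%, beside 2.88% of all tested genes). FSTL3, named after its value was seen, passed on p alone (log2 fold change 0.53, adjusted p = 0.0301 by edgeR's quasi-likelihood test). With the GC and length trend removed it was at 0.30 and did not pass (adjusted p = 0.214). CHRD encodes chordin, a BMP antagonist. It had 9.83 and 5.32 CPM before and 29.5 and 16.6 CPM after IFNγ, with both IFNγ libraries higher but the duplicates far apart. It changed by 1.58 on the log2 scale, with a standard error of 0.352 (edgeR's quasi-likelihood test, adjusted p = 0.0204). THBS1 encodes thrombospondin-1, an activator of latent TGFβ, and had 40.4 and 37.4 CPM before and 103 and 119 CPM after. Its duplicates were close and its groups well apart, with a log2 fold change of 1.51 and a standard error of 0.134 (adjusted p = 0.00119). Exons of CHRD overlap those of THPO, and exons of THBS1 overlap those of FSIP1 and THBS1-AS1. The BMP antagonists NOG, GREM1 and BMPER had 0 or 1 count per library and were not tested.

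Of 11 tested receptors, ACVR2B fell and no other was called, so 9.09% were called lower, beside 4.40% of all tested genes. Without the threshold on fold change, 1 was higher and 2 were lower (9.09% and 18.2%), beside 9.02% and 11.0% of all tested genes. ACVR2B, a type II receptor for activins and some BMPs, had 39.0 and 29.0 CPM before and 15.6 and 12.4 CPM after IFNγ. Both IFNγ libraries were below both unstimulated ones, with a log2 fold change of -1.28 and a standard error of 0.205 (edgeR's quasi-likelihood test, adjusted p = 0.00642). With the GC and length trend removed it was -0.98 (adjusted p = 0.00514), just short of the threshold on fold change. BMPR2, the main type II receptor for BMPs, had 92.9 and 93.4 CPM before and 59.2 and 56.1 CPM after, a log2 fold change of -0.69 that passed on p alone (adjusted p = 0.0077). With the trend removed this value was -0.07 (adjusted p = 0.787). TGFBR2 was higher on p alone, with a log2 fold change of 0.42 (adjusted p = 0.0481). TGFBR1 at 0.15 (adjusted p = 0.551), ACVR1 at -0.27 (adjusted p = 0.516) and BMPR1A at -0.01 did not pass, and each turned its sign in 1 or more alternatives. With the trend removed, TGFBR1 was at 0.68 and passed on p alone (adjusted p = 0.0325), and BMPR1A was at 0.47 (adjusted p = 0.0784).

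Of the 5 tested SMAD transducers, none was called by edgeR or DESeq2, but 4 were lower on p alone, which is 80% beside 11.0% of all tested genes, and 1 of these 4 still passed with the GC and length trend removed. They were SMAD3, SMAD4, SMAD5 and SMAD2, the last named after its value was seen. SMAD3 had 163 and 140 CPM before and 81.0 and 75.5 CPM after IFNγ, with a log2 fold change of -0.95 (edgeR's quasi-likelihood test, adjusted p = 0.00364). SMAD4 had 46.8 and 52.3 CPM before and 29.6 and 25.8 CPM after, with a log2 fold change of -0.83 (adjusted p = 0.00892). SMAD5 was the most abundant in CPM, with 309 and 333 before and 198 and 219 after, and a log2 fold change of -0.62 (adjusted p = 0.0106). In all of them the groups did not overlap. With the trend removed, the one that passed was SMAD3 (log2 fold change -0.96, adjusted p = 0.00134), while SMAD4 was at -0.39 (adjusted p = 0.108) and SMAD5 at 0.02 (adjusted p = 0.954). The median of the 5 moved from -0.62 to 0.02. SMAD1, at -0.08 and at 0.09 with the trend removed, did not pass in either case. Without IFNγ replicate 1, or without unstimulated replicate 2, SMAD3 was past both thresholds (-1.02 and -1.04).

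**Figure D5:**
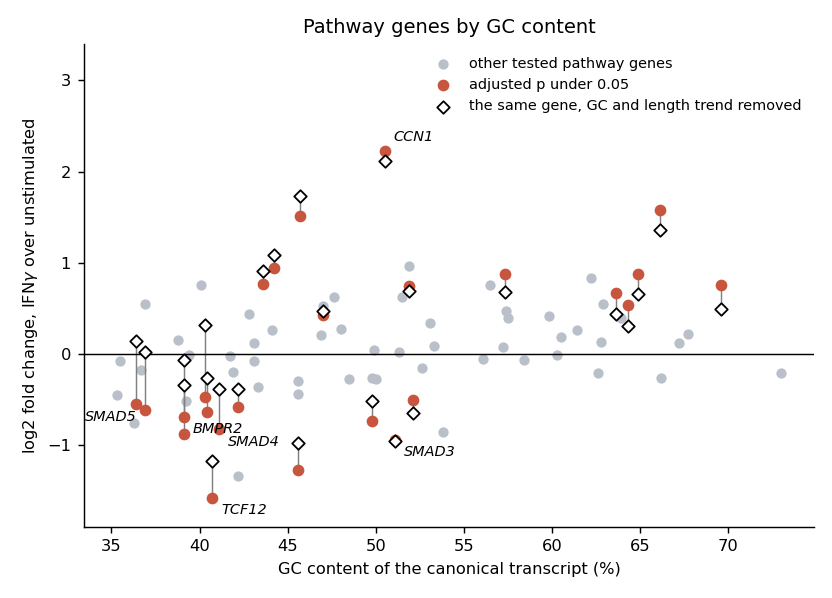
Log2 fold change (y axis) of the 78 tested pathway genes against the GC content of the transcript in percent (x axis), with genes at an adjusted p under 0.05 in red and the same genes after removal of the GC and length trend as open diamonds joined by a line. SMAD5 moves from -0.62 to 0.02 and BMPR2 from -0.69 to -0.07, while SMAD3 (-0.95 and -0.96) and CCN1 (2.22 and 2.11) move little.

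Of 18 tested intracellular regulators other than the 4 antagonists above, none was called by edgeR or DESeq2. On p alone 1 was higher (5.56%) and 6 were lower (33.3%), beside 9.02% and 11.0% of all tested genes, and 1 of 1 and 2 of 6 still passed with the GC and length trend removed. SMURF1, a ubiquitin ligase that acts on SMADs and receptors, was the one that was higher, with a log2 fold change of 0.74 (edgeR's quasi-likelihood test, adjusted p = 0.0113), and 0.69 with the trend removed. TRIM33, a ubiquitin ligase that acts on SMAD4, was at -0.88 (adjusted p = 0.00644), and at -0.34 (adjusted p = 0.102) with the trend removed. TGIF1, named after its value was seen, was at 0.44 and did not pass (adjusted p = 0.0796 by edgeR's quasi-likelihood test). With the trend removed it was at 0.64 and passed on p alone (adjusted p = 0.0273). SKI, the closest relative of SKIL, was at 0.26 (adjusted p = 0.181), and SMURF2 was at -0.03, or 0.32 with the trend removed. PMEPA1, a target that inhibits the pathway, was not tested, with 0 counts before and 6 and 2 after IFNγ.

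Among 14 tested target genes of BMP and TGFβ other than the members, CCN1 rose, and none was lower by edgeR or DESeq2, with 7 higher and 0 lower at an unadjusted p under 0.05, beside 16.6% and 18.8% of all tested genes. Without the threshold on fold change 5 were higher, CCN1 among them, which is 35.7% of the 14 beside 9.02% of all tested genes. Of these, 4 still passed with the GC and length trend removed. CCN1, which encodes a matrix-associated signaling protein, had 9.06 and 7.43 CPM before and 25.8 and 52.4 CPM after IFNγ. Both IFNγ libraries were higher but differed widely from each other. It rose by 2.22 on the log2 scale, with a standard error of 0.343 (edgeR's quasi-likelihood test, adjusted p = 0.00577), and it was 1.61 without IFNγ replicate 2. CDKN1A, which encodes the cell cycle inhibitor p21, was at 0.88 (adjusted p = 0.00364). The other 3, named after their values were seen, were CDKN2B at 0.94, JUNB at 0.87 and KLF10 at 0.76. With the GC and length trend removed CDKN2B was at 1.08 (adjusted p = 0.0157 by edgeR's quasi-likelihood test), past both thresholds. JUNB was the one of these 5 that did not pass with the trend removed (log2 fold change 0.65, adjusted p = 0.0543 by edgeR's quasi-likelihood test). PTGS2, also named after its value was seen, was at 0.55 and did not pass (adjusted p = 0.176). With the trend removed it was at 1.12 (adjusted p = 0.0239), past both thresholds. The target genes HAMP and SNAI2 had 0 counts in every library, and CCN2 had 0 or 1.

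Of the bHLH factors listed as possible partners of ID proteins, 5 were tested and TCF12 fell, which is 20%, beside 4.40% of all tested genes called lower. Whether each of them binds ID proteins in these cells was not tested. Without the threshold on fold change, 1 was higher and 1 was lower (20% each), beside 9.02% and 11.0% of all tested genes. TCF12 encodes an E protein, a class of common bHLH partners, and had 86.0 and 86.4 CPM before and 31.1 and 26.3 CPM after IFNγ. The groups were well apart, with a log2 fold change of -1.58 and a standard error of 0.137 (edgeR's quasi-likelihood test, adjusted p = 0.00117). With the GC and length trend removed it was -1.18 (adjusted p = 0.000718). TCF3 at -0.21 (adjusted p = 0.226), TCF4 at -0.52 (adjusted p = 0.183) and HES6 at -0.27 (adjusted p = 0.577) did not pass edgeR's quasi-likelihood test. These genes were named after their values were seen. With the trend removed TCF3 was at -0.42, TCF4 at 0.02 and HES6 at -0.51, and none passed. ASCL2, a bHLH factor of intestinal stem cells, was higher on p alone, with a log2 fold change of 0.75 (adjusted p = 0.0445), and at 0.49 (adjusted p = 0.178) with the trend removed. ATOH1 was not analysed here.

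The genes whose pattern over the 4 libraries was most like that of ID1 were MYC, TNFRSF12A, PHLDA2, MIR22HG and CLCF1, by Euclidean distance between log2 CPM values centred on each gene's own mean. Their distances were 0.149, 0.213, 0.222, 0.240 and 0.260 on the log2 scale. MYC encodes a transcription factor that drives cell growth, and had 387 and 459 CPM in the IFNγ libraries, with a log2 fold change of 2.87 (edgeR's quasi-likelihood test, adjusted p = 0.000287). TNFRSF12A, the receptor for the cytokine TWEAK, had a log2 fold change of 2.83. The values for PHLDA2, MIR22HG, the host transcript of the microRNA miR-22, and CLCF1, a cytokine of the interleukin-6 family, were 3.24, 2.92 and 3.19. With 4 libraries in 2 conditions, genes with a similar change between conditions are close by construction.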

How the data were processed

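RNA-seq was available for 4 Caco-2 libraries. The authors deposited raw read counts per Ensembl gene, with replicates not pooled. The submitters' processing notes name HISAT 0.5.1 and HTSeq 0.6.1p1, without their roles. The genome build, annotation and handling of strand for these libraries are not given in the sources used here. Symbols were matched for 96.5% of 37515 identifiers. Gene coordinates, GC content and exon lengths came from GENCODE 44 mapped to GRCh37, which need not be the annotation used for counting, and promoters from RefSeq on GRCh38.p14. No column of the count table was left out.

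Counts were filtered with filterByExpr, scaled by the TMM method and tested over all 14820 remaining genes by the quasi-likelihood test of edgeR (version 4.0.16, under R 4.3.3), with condition as the only term. A call needed a log2 fold change above 1 in size at a Benjamini-Hochberg adjusted p under 0.05. The standard error of a log2 fold change was its size over the root of F. CPM values are TMM-normalized, and log2 fold changes between single libraries used a prior count of 2. The GC and length trend was removed from each library by a loess fit with a span of 0.4. Alternatives were DESeq2 1.42.0, scaling by DESeq2's size factors, by the upper quartile or by library size alone, other filters and thresholds, glmTreat, the replicate number as a block, and each library left out in turn. In 3 simulations with genes changed 4-fold, over at least 14529 genes, 91.2% of the changed genes were recovered, with 5.96% false calls. The simulated counts held no GC trend and no tie between same-numbered libraries. These rates therefore do not apply to smaller changes or to the effect of that trend.

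The genes named are the 10 listed genes, pathway genes that were called, the 2 tested genes with the smallest p of each role, a fixed set of receptors, SMADs and regulators, and the 5 genes most like ID1. The genes and lists were chosen with earlier results of these data known. Depth was 7171455 to 10365346 counts per library, and precision was limited by this depth and by 2 libraries per condition.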

Additional observations from a re-analysis of the deposited data

How the results depend on the processing

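The counts of called genes among the 9 members were 2 higher and 0 lower. Members called higher numbered 1 with DESeq2, which gave ID3 no adjusted p, 1 with glmTreat, which tests the change against the fold threshold itself, 1 at an adjusted p under 0.01, and 1 to 2 when a library was left out. They numbered 3 with the GC and length trend removed, with or without the replicate block, and 3 without a fold change threshold, SKIL being added. Members called lower numbered 1 without a fold change threshold, and 0 to 1 when a library was left out, BMP2 being called without IFNγ replicate 2. Pathway genes called higher numbered 3. They numbered 5 with the GC and length trend removed, CDKN2B and PTGS2 being added, and 6 with the trend removed and the replicate block. They numbered 0 with glmTreat and 12 without a fold change threshold. Pathway genes called lower numbered 2, but 1 with the GC and length trend removed, 1 with glmTreat, 13 without a fold change threshold and 2 to 5 when a library was left out, the highest without IFNγ replicate 1. Tested genes called higher numbered 427, but 67 with glmTreat and 1337 without a fold change threshold. Tested genes called lower numbered 652, but 301 with the trend removed, 46 with glmTreat, 1626 without a fold change threshold, 382 at an adjusted p under 0.01 and 551 to 1110 when a library was left out. Where the construction of an alternative does not show it, the cause was not tested.

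Some log2 fold changes turned their sign, most of them near 0, with SMAD5 (-0.62, adjusted p = 0.0106 by edgeR's quasi-likelihood test) and ACVR1 (-0.27) as exceptions. With the GC and length trend removed, SMAD6 was at -0.13, BMPR1A at 0.47, SMAD1 at 0.09, SMAD5 at 0.02 and SMURF2 at 0.32. With the trend removed and the replicate block, SMAD6 was at -0.13, BAMBI at -0.01, BMPR1A at 0.46, SMAD1 at 0.10, SMAD5 at 0.01 and SMURF2 at 0.31. With upper quartile scaling BMPR1A was at 0.03 and SMURF2 at 0.01, and BMPR1A was at 0.00 with DESeq2 and at 0.01 without a filter on low counts. When a library was left out, the range was -0.28 to 0.29 for SMAD6, -0.26 to 0.44 for BAMBI, -0.03 to 0.02 for BMPR1A, -0.47 to 0.02 for ACVR1, -0.01 to 0.34 for TGFBR1, -0.34 to 0.10 for SMAD1 and -0.16 to 0.06 for SMURF2. ID1 kept its direction and its call in every alternative that was run.

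Same-numbered libraries deviated together from the mean of their condition (r = 0.415 across genes), but there are 2 pairs and no label ties a number to a shared batch. With the replicate block, 2 members were called higher and 0 lower, 3 pathway genes higher and 3 lower, and 492 tested genes higher and 896 lower. The pathway gene added as lower was TGFB2 (log2 fold change -1.32, adjusted p = 0.0427 by edgeR's quasi-likelihood test). ID2 had an adjusted p of 0.0158 with the block, at a log2 fold change of 0.37, by edgeR's quasi-likelihood test. Depth limits ID3, with 18 to 53 counts, more than the other members.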
